A study of Homo sapiens with 6 samples.

Results

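The cornified envelope is a sheet of crosslinked protein that replaces the plasma membrane of squamous epithelial cells late in their differentiation. Precursors such as involucrin, the small proline-rich (SPRR) proteins, envoplakin and periplakin are joined by transglutaminases, while lipoxygenases prepare the lipids bound to its outer face. Kallikreins and other serine proteases act at the cell surface as the layers mature, and serpins, SPINK proteins and cystatins inhibit proteases of these layers. The lining of the esophagus is a squamous epithelium that expresses many of these genes without forming the horny layer of skin.

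A set of 46 such genes was chosen by name for their role in this process, with earlier results of these data known, and all 46 were found among the 67140 Ensembl identifiers of the deposited gene table. It holds 18 envelope precursors, 4 transglutaminases, 9 kallikreins and transmembrane serine proteases, 7 protease inhibitors, 2 barrier lipid enzymes, 2 calmodulin-like proteins and 4 membrane proteins. They were measured by RNA sequencing in KYSE150 cells, a line established from a human esophageal squamous cell carcinoma (ESCC). All cells were of this line and carried a short hairpin delivered by lentivirus with puromycin selection: shCtrl in 3 samples and shAC007128.1, directed against the lncRNA AC007128.1, in the other 3. Each arm rests on 1 hairpin in 1 line, and the labels do not say whether the samples came from separate cultures, so p-values measure only the spread between these samples.

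Total counts ranged from 55764405 to 78610457 per sample, and 3 counts, used as the detection floor, equal 0.0373 to 0.0546 CPM. CPM are counts relative to the library size, scaled by TMM, edgeR's correction for library composition. These floors cover counting error only. Low counts piled up at multiples of 4, so 1 fragment may stand as several counts. A floor of 3 counts may then be less than 1 fragment. AC007128.1 itself was at 0.943, 0.41 and 0.781 CPM in shCtrl replicates 1 to 3 and at 0.32, 0.674 and 0.258 CPM in shAC007128.1 replicates 1 to 3, so the groups overlapped. In the edgeR test its shAC007128.1 level differed from shCtrl by -0.77 on the log2 scale (SE, the standard error, 0.51, adjusted p = 0.271). This difference did not pass. The study that produced these data reported by qPCR that its hairpin lowered AC007128.1 RNA. All 8 markers of squamous epithelium had counts, with a summed level of 1280 to 1300 CPM in shCtrl and 1850 to 2350 CPM in shAC007128.1 samples, and KRT5 gave 45.4% of the shCtrl sum. Its members did not all move one way. KRT14, KRT6A and SOX2 were called higher (log2 fold changes 2.28, 2.46 and 3.4), and KRT5 (0.87) was higher by the adjusted p alone. The desmosomal cadherin DSG3 was called lower (-1.09, edgeR adjusted p = 0.000122). KRT17 at 0.45, TP63 at -0.27 and DSC3 at 0.04 did not pass the test. KRT1, KRT2 and LORICRIN, which define cornifying epidermis, were at 0 in every sample, and the fourth gene of that list, KRT10, accounts for its sum of 43.6 to 44.7 CPM in shCtrl and 22.4 to 34.9 CPM in shAC007128.1 cells. Of the 2 markers of suprabasal esophagus, KRT13 was called higher (log2 fold change 1.22, edgeR adjusted p = 0.0275). It was at 0.649 to 1.15 CPM in shCtrl and 1.27 to 2.38 CPM in shAC007128.1 samples. KRT4 had 9, 8 and 18 counts in shCtrl and 0, 5 and 0 in shAC007128.1 replicates 1 to 3, and was not tested. The summed levels of 6 fibroblast and 3 endothelial markers were at most 23.9 and 3.11 CPM. Of the leukocyte markers, CD68, a lysosomal protein of macrophages, was at 58.8 to 67.3 CPM in shCtrl and 13.5 to 23.5 CPM in shAC007128.1 samples, and PTPRC, the pan-leukocyte marker CD45, had at most 9 counts in any sample. The part these markers play in the results was not tested, and in bulk RNA fewer cells expressing a gene and less of its RNA per cell cannot be told apart.

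Promoter sequences were searched for motifs of squamous and general transcription factors, and no motif was found in all members. The 250 bases before the RefSeq gene start (build GRCh38.p14) were at hand for 34 members. They are shown for IVL, the classical envelope gene that was nearly silent here, for FLG, and for SERPINB13, KLK5 and ALOXE3, which changed beyond both limits given below. Capitals mark matches to TGANTCA (the AP-1 motif), TTGCNNAA (C/EBP), AACNNGTT (GRHL) and CATG repeated 6 bases further on (p53 family) on either strand, and to TATAAA (the TATA box) on the sense strand.
IVL, chr1:152908296-152908545, plus strand: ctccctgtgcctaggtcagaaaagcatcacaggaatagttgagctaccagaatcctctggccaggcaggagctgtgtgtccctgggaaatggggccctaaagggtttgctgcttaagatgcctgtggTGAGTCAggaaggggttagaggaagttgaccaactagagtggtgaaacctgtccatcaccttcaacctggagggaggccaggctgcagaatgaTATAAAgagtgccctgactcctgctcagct
FLG, chr1:152325240-152325489, minus strand: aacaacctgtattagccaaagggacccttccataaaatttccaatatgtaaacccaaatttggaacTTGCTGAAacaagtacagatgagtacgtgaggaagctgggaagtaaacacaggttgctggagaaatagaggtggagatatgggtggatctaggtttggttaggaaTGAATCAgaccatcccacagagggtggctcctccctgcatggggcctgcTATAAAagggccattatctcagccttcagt
SERPINB13, chr18:63587093-63587342, plus strand: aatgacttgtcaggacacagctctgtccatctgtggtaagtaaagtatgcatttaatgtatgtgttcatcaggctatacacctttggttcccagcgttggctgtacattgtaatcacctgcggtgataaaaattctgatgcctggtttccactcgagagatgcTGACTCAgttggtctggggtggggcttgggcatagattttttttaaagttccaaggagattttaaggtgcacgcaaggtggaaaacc
KLK5, chr19:50953039-50953288, minus strand: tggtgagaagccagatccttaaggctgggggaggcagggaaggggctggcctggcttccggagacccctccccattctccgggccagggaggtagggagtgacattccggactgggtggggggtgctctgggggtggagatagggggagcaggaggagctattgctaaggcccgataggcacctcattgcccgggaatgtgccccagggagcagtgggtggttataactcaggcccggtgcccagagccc
ALOXE3, chr17:8118917-8119166, minus strand: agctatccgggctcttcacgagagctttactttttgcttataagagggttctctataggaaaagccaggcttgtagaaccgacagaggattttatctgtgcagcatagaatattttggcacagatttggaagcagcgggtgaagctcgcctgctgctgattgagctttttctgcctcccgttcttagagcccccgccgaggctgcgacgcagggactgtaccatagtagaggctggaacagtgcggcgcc

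IVL and FLG carried both an AP-1 match and a TATA box, SERPINB13 carried an AP-1 match alone, and the windows of KLK5 and ALOXE3 held no match to any of these motifs. RefSeq and GENCODE, which gave the gene positions, place some starts differently. By GENCODE, the SERPINB13 window lies wholly inside the gene and the KLK5 and ALOXE3 windows lie partly inside. These windows therefore stand before the RefSeq start only. An AP-1 match was found in 12 of the 34 members (35.3%), against 6.6% of all 27305 promoters of this length. Of the 12, 10 were envelope precursors, out of 13 precursors with a window: IVL, SPRR1A, SPRR1B, SPRR2A, SPRR3, CRNN, FLG, FLG2, SBSN and SCEL. The other two were SERPINB13 and EMP1. A TATA box was found in 10 members (29.4%, against 7.17% of all promoters), and 6 members had both. C/EBP matches stood in 7 members (20.6%, against 9.13%), GRHL matches in 3 (8.82%, against 2.97%) and p53-family matches in 0 (against 0.297%). No matches of different motifs shared bases. The 12 members with an AP-1 match did not move together: 2 were called lower, 0 were called higher, 5 were tested and not called, and 5 had too few counts to be tested. Over all genes tested, 10.1% were called lower and 5.57% higher. A match is a description of letters and does not show that a factor binds there. SPRR2D, SPRR2E, CSTA, CSTB, EVPL, PPL, TGM1, TGM2, KLK8, RHCG, LY6D and CRCT1 had no window.

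Of the 46 genes, 29 had enough counts to pass edgeR's filter and be tested. The remaining 17 had at most 14 counts in any sample, and 4 of them, SPRR2E, SPRR3, TGM3 and MAL, had no count in any sample. These low genes include several that mark the upper layers of the esophagus and skin. IVL, encoding involucrin, had 4, 0 and 8 counts in shCtrl replicates 1 to 3 and 0 in every shAC007128.1 sample. CRNN, encoding the esophageal protein cornulin, had 5 counts in 1 shCtrl sample and none elsewhere. SPRR4, CRCT1, KLK7, KLK8, KLK13, CALML5, TMPRSS11D and RHCG had at most 9 counts in any sample, and KLK11 had at most 12. SPRR1A had 6 to 9 counts in shCtrl and 8 to 14 in shAC007128.1 samples. FLG2 had 12, 10 and 9 counts in shCtrl and 0 in each shAC007128.1 sample, levels too low for the filter. TGM3 shares 2553 of its 2694 exonic bases with another protein-coding gene on the same strand. KLK8 shares 747 of its 1865 with another such gene. Reads there may have been given to the other gene or left out, so the counts of TGM3 and KLK8 are uncertain. Low counts such as these limit detection and do not show absence.

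Between the groups, 4 of the 29 tested members (13.8%) were called higher in shAC007128.1 cells and 5 (17.2%) lower. A call required an adjusted p of at most 0.05 from edgeR's quasi-likelihood test, with p adjusted over all 19254 genes tested, and a change of 1 or more on the log2 scale in either direction. Among all genes tested 5.57% were called higher and 10.1% lower. With the adjusted p alone, 9 members (31.0%) were higher and 8 (27.6%) lower, where all genes gave 21.0% and 19.8%. The groups did not overlap in 19 members (65.5%), against 55.2% of all genes. The median log2 fold change was -0.07 over the tested members and -0.02 over all genes tested. The members higher beyond both limits were KLK5, TMPRSS11E, SPINK6 and CALML3. Those lower were SERPINB3, SERPINB13, ALOXE3, ALOX12B and SBSN. SPINK6, CALML3, SERPINB3 and SBSN passed the filter on low counts only through the group in which they were high, so a gene at their level had to differ to be tested, and their calls add no support to the counts above.

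**Figure D1:**
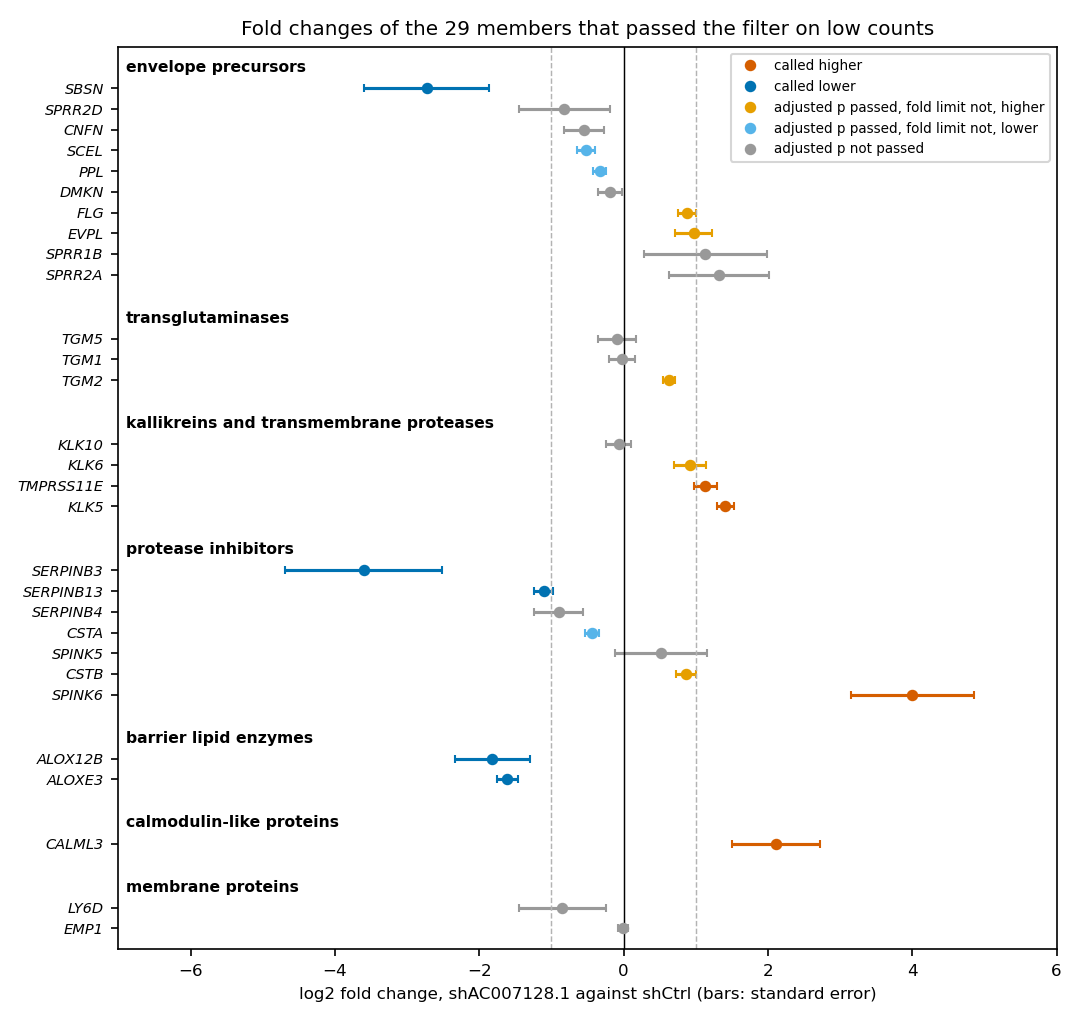
Log2 fold change (horizontal axis, with its standard error) of each of the 29 tested members, grouped by role, for 3 shAC007128.1 against 3 shCtrl samples; dashed lines mark the limit of 1 in size. Among the proteases only KLK10, at -0.07, lies below 0, both lipid enzymes lie below -1, and envelope precursors and inhibitors spread to both sides.

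Of the 9 serine proteases of the set 4 were tested, of which 2 were called higher and 0 lower. All genes tested gave 5.57% higher and 10.1% lower. The other 5, KLK7, KLK8, KLK11, KLK13 and TMPRSS11D, had too few counts, with KLK11 at 12, 8 and 7 counts in shCtrl and 0, 9 and 0 in shAC007128.1 samples. KLK5 (ENSG00000167754, chromosome 19, 50943303 to 50953093), a kallikrein that activates other kallikreins and cleaves corneodesmosome proteins in skin, was at 43.9, 44.4 and 39.3 CPM in shCtrl replicates 1 to 3 and at 126, 118 and 94.1 CPM in shAC007128.1 replicates 1 to 3. Every shAC007128.1 sample lay above every shCtrl sample, with the wider spread among the former. The means were 42.5 ± 2.83 and 113 ± 16.5 CPM (SD, n = 3 each), a ratio of 2.65. The log2 fold change was 1.41 (SE 0.12, edgeR adjusted p = 0.000179), and it lay between 1.32 and 1.51 under every alternative followed gene by gene. KLK5 shares 202 of its 1653 exonic bases with a lncRNA on the opposite strand, and the use of strand in counting is not stated.

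TMPRSS11E (ENSG00000087128, chromosome 4, 68447463 to 68497604), a transmembrane serine protease of squamous epithelia, was at 10.1, 9.72 and 10.2 CPM in shCtrl and at 19.1, 19.2 and 27.3 CPM in shAC007128.1 replicates 1 to 3. The shCtrl samples were close together, and the third shAC007128.1 sample stood above the other two. The log2 fold change was 1.13 (SE 0.16, edgeR adjusted p = 0.00148). Without shAC007128.1 replicate 3 it was 0.93 (adjusted p = 0.000709), under the fold limit. KLK6, which lies next to KLK5 in the kallikrein cluster, was at 1.06 to 1.39 CPM in shCtrl and 1.97 to 2.56 CPM in shAC007128.1 samples, with no overlap. It shares 401 of 1976 exonic bases with a lncRNA on the opposite strand. Its log2 fold change of 0.92 (SE 0.22, edgeR adjusted p = 0.0134) missed the fold limit, which it passed without shCtrl replicate 2 (1.03) and without shAC007128.1 replicate 1 (1.02). It missed the adjusted p without shCtrl replicate 1 (0.90, adjusted p = 0.0501) and without shCtrl replicate 3 (0.83, adjusted p = 0.0522). KLK10, a further kallikrein, was at 7.45 to 8.98 and 6.33 to 8.77 CPM, a log2 fold change of -0.07 (SE 0.17, edgeR adjusted p = 0.762). The groups overlapped for KLK10 and no difference was detected. The 9 proteases together summed to 59.8 to 63.9 CPM in shCtrl and 133 to 153 CPM in shAC007128.1 samples, and KLK5 gave 68.4% of the shCtrl sum.

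The protease inhibitors moved in both directions. SERPINB13 (ENSG00000197641, chromosome 18, 63586989 to 63604639), a serpin of stratified epithelium known as headpin or hurpin that inhibits cathepsins, was at 38.5, 37.0 and 41.9 CPM in shCtrl and at 15.4, 18.4 and 20.5 CPM in shAC007128.1 replicates 1 to 3. All shAC007128.1 samples were below all shCtrl samples, and the mean was 46.2% of control. The log2 fold change was -1.11 (SE 0.13, edgeR adjusted p = 0.000529), with a range of -1.22 to -1.01 over the alternatives. SERPINB3 (ENSG00000057149, chromosome 18, 63655197 to 63661893), the squamous cell carcinoma antigen 1, fell from 0.711, 0.721 and 0.59 CPM to 0, 0.164 and 0 CPM. These are 52, 58 and 40 counts against 0, 9 and 0. Its log2 fold change was -3.60 (SE 1.09, edgeR adjusted p = 0.0334). The call was lost without any one of shCtrl replicates 1, 2 or 3 (adjusted p = 0.0903, 0.0928 and 0.0782) and without shAC007128.1 replicate 1 or 3 (0.0625 and 0.0635). Without shAC007128.1 replicate 2, the only sample of its group with counts, the gene was at 0 in both remaining samples and the fitted value, -8.5, is no bound. SERPINB4, its near-identical neighbour and the squamous cell carcinoma antigen 2, was at 1.24 to 1.7 CPM in shCtrl and 0.473 to 1.05 CPM in shAC007128.1 samples, a log2 fold change of -0.90 (SE 0.34, edgeR adjusted p = 0.0678). It passed both limits without shAC007128.1 replicate 1 (-1.18, adjusted p = 0.0424). Reads can be split between SERPINB3 and SERPINB4, and SERPINB3 shares 620 exonic bases with SERPINB11 on the opposite strand, so their single values are uncertain.

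SPINK6 (ENSG00000178172, chromosome 5, 148202794 to 148215137), a Kazal-type inhibitor of kallikreins, rose from 0, 0.0995 and 0.0442 CPM in shCtrl to 0.676, 1.15 and 0.602 CPM in shAC007128.1 replicates 1 to 3. In counts this is 0, 8 and 3 against 38, 63 and 35, so the gene was at or near the detection floor in shCtrl cells. The fitted log2 fold change was 4.0 (SE 0.85, edgeR adjusted p = 0.00837), between 3.43 without shCtrl replicate 1 and 5.1 without shCtrl replicate 2, the ends of the range over the alternatives that tested it. SPINK5, which encodes the kallikrein inhibitor LEKTI and lies on the same chromosome, had 9 to 13 counts in shCtrl and 5 to 18 in shAC007128.1 samples, and its groups overlapped (log2 fold change 0.52, SE 0.64, edgeR adjusted p = 0.557). The cystatins, which inhibit cysteine cathepsins, differed from each other in sign. CSTB (chromosome 21, 43772511 to 43776330), encoding cystatin B, was at 66.3, 68.7 and 64.7 CPM in shCtrl and at 141, 127 and 95.5 CPM in shAC007128.1 replicates 1 to 3. All shAC007128.1 samples were higher, and the log2 fold change of 0.86 (SE 0.14, edgeR adjusted p = 0.00262) was under the fold limit. CSTA, the cystatin A of the envelope, was at 28.6 to 32.4 and 21.2 to 24.3 CPM (log2 fold change -0.44, SE 0.10, edgeR adjusted p = 0.0111). It missed the adjusted p without shCtrl replicate 1 (edgeR adjusted p = 0.0515).

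**Figure D2:**
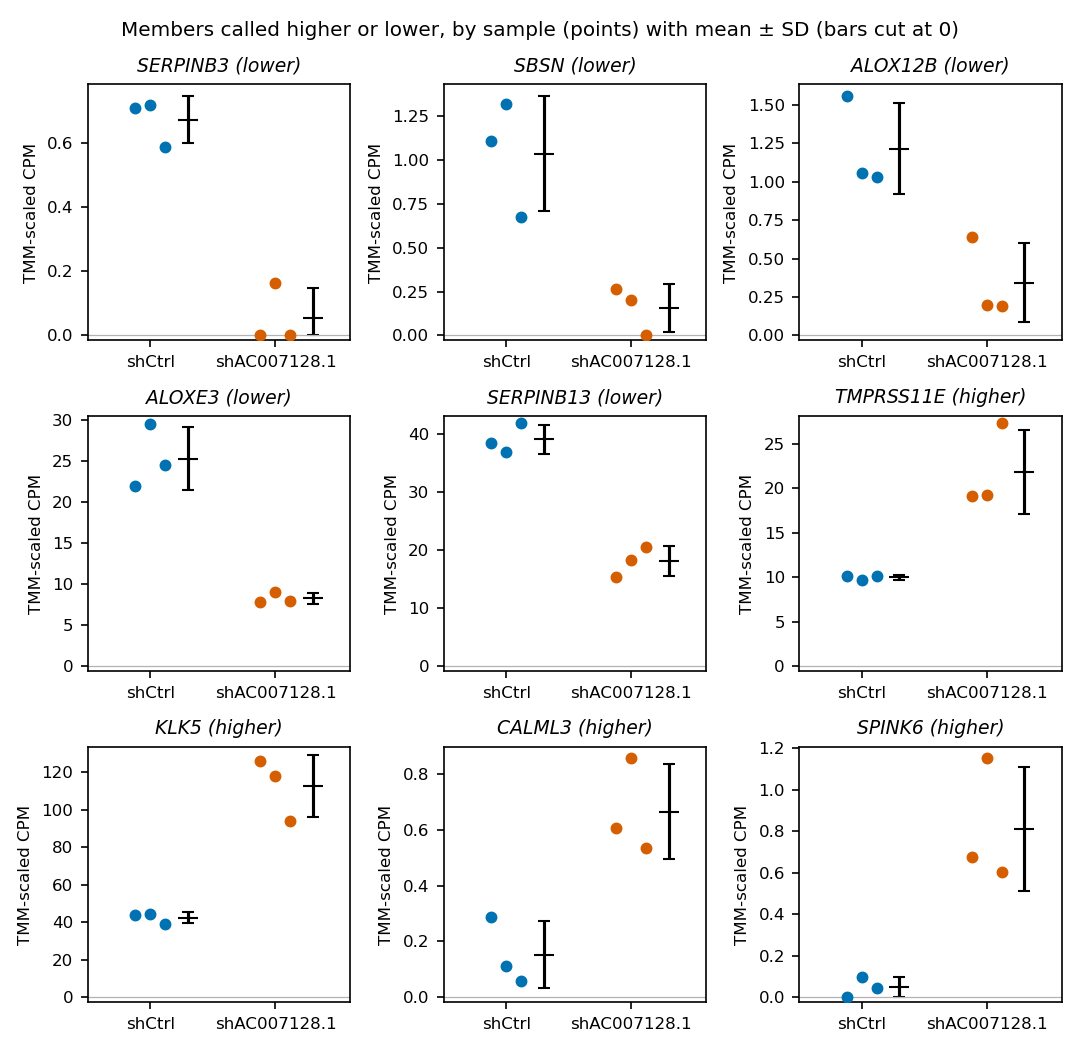
TMM-scaled CPM (vertical axis, from 0) of the 9 members called higher or lower, with 1 point per sample for 3 shCtrl and 3 shAC007128.1 samples, and bars for the mean ± SD. The groups do not overlap in any panel, as in 55.2% of all genes tested. The genes were picked because they were called, so this adds no support to the calls. ALOXE3, SERPINB13, TMPRSS11E and KLK5 have levels of 7.86 to 126 CPM while the other 5 genes stay at or under 1.56 CPM.

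Both barrier lipid enzymes fell. ALOXE3 (ENSG00000179148, chromosome 17, 8095900 to 8119047) and ALOX12B (ENSG00000179477, chromosome 17, 8072636 to 8087716) are neighbours that encode lipoxygenases acting in sequence on the linoleate of barrier ceramides. ALOXE3 was at 22, 29.5 and 24.5 CPM in shCtrl and at 7.86, 9.05 and 7.98 CPM in shAC007128.1 replicates 1 to 3. Its shAC007128.1 samples lay close together below all shCtrl samples, at 32.8% of the control mean. The log2 fold change was -1.61 (SE 0.14, edgeR adjusted p = 0.000188), from -1.71 to -1.49 over the alternatives. ALOX12B was at 1.56, 1.06 and 1.03 CPM in shCtrl and at 0.64, 0.2 and 0.189 CPM in shAC007128.1 samples. Here too the groups did not overlap, with the first sample of each group the highest. Its log2 fold change was -1.82 (SE 0.52, edgeR adjusted p = 0.028). The call was lost without shCtrl replicate 1, 2 or 3 (adjusted p = 0.0942, 0.0591 and 0.0564) and without shAC007128.1 replicate 2 or 3 (0.0763 and 0.0693), and the value was -2.63 without shAC007128.1 replicate 1. ALOX12B shares 736 of 2746 exonic bases with a lncRNA on the opposite strand, so its count is uncertain. ALOX15B, the third lipoxygenase gene there, had at most 16 counts and was not tested.

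Among the 10 envelope precursors tested, 1 was called lower and 0 higher, where all genes tested gave 10.1% lower and 5.57% higher. SBSN (ENSG00000189001, chromosome 19, 35523367 to 35528351), encoding suprabasin, was at 1.11, 1.32 and 0.678 CPM in shCtrl and at 0.267, 0.2 and 0 CPM in shAC007128.1 replicates 1 to 3, which is 81, 106 and 46 counts against 15, 11 and 0. All shAC007128.1 samples were lower (log2 fold change -2.73, SE 0.87, edgeR adjusted p = 0.0404). The adjusted p rose to 0.102, 0.12 and 0.0659 without shCtrl replicate 1, 2 or 3 and to 0.0809 without shAC007128.1 replicate 2, while the log2 fold change was -3.37 without shAC007128.1 replicate 1. DMKN, encoding dermokine and lying beside SBSN on chromosome 19 (35497220 to 35513658), was at 82.4, 80.1 and 78.5 CPM in shCtrl and at 84.7, 75.2 and 51.8 CPM in shAC007128.1 samples. Its groups overlapped, with shAC007128.1 replicate 3 the lowest (log2 fold change -0.19, SE 0.17, edgeR adjusted p = 0.419).

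The plakins of the envelope, which tie keratin filaments to desmosomes and the membrane, differed from each other. PPL (periplakin, chromosome 16, 4882507 to 4960741) was at 183, 177 and 177 CPM in shCtrl and at 154, 148 and 124 CPM in shAC007128.1 replicates 1 to 3. The shAC007128.1 samples were all lower, at 79.4% of control, and the log2 fold change was -0.33 (SE 0.09, edgeR adjusted p = 0.0237). PPL missed the adjusted p when shCtrl replicate 1, 2 or 3 was left out (edgeR adjusted p = 0.0795, 0.0675 and 0.0654). EVPL (envoplakin), its partner in the envelope, was at 23.2 to 41 CPM in shCtrl and 50.2 to 84.6 CPM in shAC007128.1 samples, a log2 fold change of 0.97 (SE 0.26, edgeR adjusted p = 0.0207). It passed the fold limit when shCtrl replicate 2 (1.11), replicate 3 of shCtrl (1.07) or replicate 3 of shAC007128.1 (1.14) was left out, and it missed the adjusted p without replicate 1 of shAC007128.1 (0.96, adjusted p = 0.0514) or replicate 2 of shAC007128.1 (0.78, adjusted p = 0.0684). FLG, encoding profilaggrin, was at 21.5 to 23.6 CPM in shCtrl and 34.5 to 45.2 CPM in shAC007128.1 samples (log2 fold change 0.88, SE 0.12, edgeR adjusted p = 0.00133), under the fold limit. FLG shares 1587 of 12793 exonic bases with FLG-AS1. SCEL, encoding the envelope protein sciellin, was at 42.1 to 44.8 and 27.1 to 36 CPM (log2 fold change -0.52, SE 0.13, edgeR adjusted p = 0.0143). It missed the adjusted p without shCtrl replicate 2 (edgeR adjusted p = 0.0527) or shAC007128.1 replicate 2 (0.0544).

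The SPRR genes, whose products bridge other envelope proteins, had counts close to the floor. SPRR1B had 10, 14 and 28 counts in shCtrl and 40, 44 and 4 in shAC007128.1 replicates 1 to 3, a spread within the group that covers the difference between groups. SPRR2A had 4 to 17 counts in shCtrl and 9 to 33 in shAC007128.1 samples, and SPRR2D had 22 to 36 and 4 to 19. Their log2 fold changes were 1.13, 1.32 and -0.82 with SEs of 0.85, 0.69 and 0.63, and no difference was detected (smallest edgeR adjusted p = 0.174). SPRR2 copies are near-identical, as are SPRR1A and SPRR1B, so reads can be split among them. CNFN, encoding cornifelin, was at 1.04 to 1.74 and 0.826 to 1.09 CPM, with overlap (log2 fold change -0.55, SE 0.28, edgeR adjusted p = 0.164). Only 3 of the 11 SPRR genes were tested, and of 19 late cornified envelope (LCE) genes, which lie in the same stretch of chromosome 1, 0 were tested and 17 had no count in any sample.

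Of the transglutaminases, which crosslink the precursors, the enzymes of the epidermal envelope differed little and the widely expressed member was higher. TGM2 (tissue transglutaminase, chromosome 20, 38127385 to 38166578) was at 392, 398 and 383 CPM in shCtrl and at 650, 624 and 541 CPM in shAC007128.1 replicates 1 to 3. The shAC007128.1 samples were all higher, by 1.55 times in the mean. The log2 fold change was 0.63 (SE 0.08, edgeR adjusted p = 0.000823), under the fold limit. TGM1, the membrane-bound transglutaminase of keratinocytes, was at 3.43 to 3.91 CPM in shCtrl and 3.29 to 4.33 CPM in shAC007128.1 samples (log2 fold change -0.02, SE 0.18, edgeR adjusted p = 0.946). TGM5 was at 1.98 to 2.29 and 1.53 to 2.75 CPM (log2 fold change -0.09, SE 0.26, edgeR adjusted p = 0.814). For both, the shCtrl range lay within the shAC007128.1 range.

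Of the remaining members, EMP1 (epithelial membrane protein 1, chromosome 12, 13196723 to 13219941) was at 277, 294 and 262 CPM in shCtrl and at 271, 269 and 288 CPM in shAC007128.1 replicates 1 to 3. The groups overlapped and the log2 fold change was -0.01 (SE 0.07, edgeR adjusted p = 0.935). LY6D, a surface protein of squamous cells, was at 0.427 to 0.56 and 0.0728 to 0.391 CPM (log2 fold change -0.85, SE 0.60, edgeR adjusted p = 0.306). CALML3 (ENSG00000178363, chromosome 10, 5524961 to 5526771), a calmodulin-like protein of epithelial cells, was at 0.287, 0.112 and 0.059 CPM in shCtrl and at 0.605, 0.856 and 0.533 CPM in shAC007128.1 samples. These are 21, 9 and 4 against 34, 47 and 31 counts, and the groups did not overlap. Its log2 fold change was 2.11 (SE 0.61, edgeR adjusted p = 0.0292). The call was lost without shCtrl replicate 2 or 3 (adjusted p = 0.0979 and 0.0714) and without shAC007128.1 replicate 1 or 2 (0.0574 and 0.092), and the value was 2.91 without shCtrl replicate 1. CALML3 overlaps 2 lncRNAs on the opposite strand, by 354 and 595 of its 1811 exonic bases.

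Per length, the levels of the tested members spanned from 0.0291 CPM per kilobase of exonic length (SPINK5) to 49.2 (TGM2) in shCtrl cells. This length joins the exons of all annotated transcripts of a gene and can exceed the length of its RNA. For CSTB its 3820 bases cover the whole gene from 43772511 to 43776330. The order below holds for this length only, and levels per length of RNA were not computed. After TGM2 came EMP1 at 35.4 ± 2 CPM per kilobase, KLK5 at 25.7 ± 1.71, PPL at 23.3 ± 0.427, CSTA at 22.3 ± 1.39 and CSTB at 17.4 ± 0.529 (SD, n = 3 each). The SDs of PPL and CSTA reach into each other, so the order of these neighbours in shCtrl cells is not resolved. In shAC007128.1 cells TGM2 stood at 76.1 ± 7.14 and KLK5 at 68.1 ± 9.99 CPM per kilobase, which again overlap, followed by EMP1 at 35.2 ± 1.32 and CSTB at 31.7 ± 6.11. ALOXE3 went from place 10 to 13 of the 29 genes, and SPINK6 from 28 to 16. TGM1, the keratinocyte enzyme, was at 0.998 and 0.986 CPM per kilobase in shCtrl and shAC007128.1 cells, far under TGM2.

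**Figure D3:**
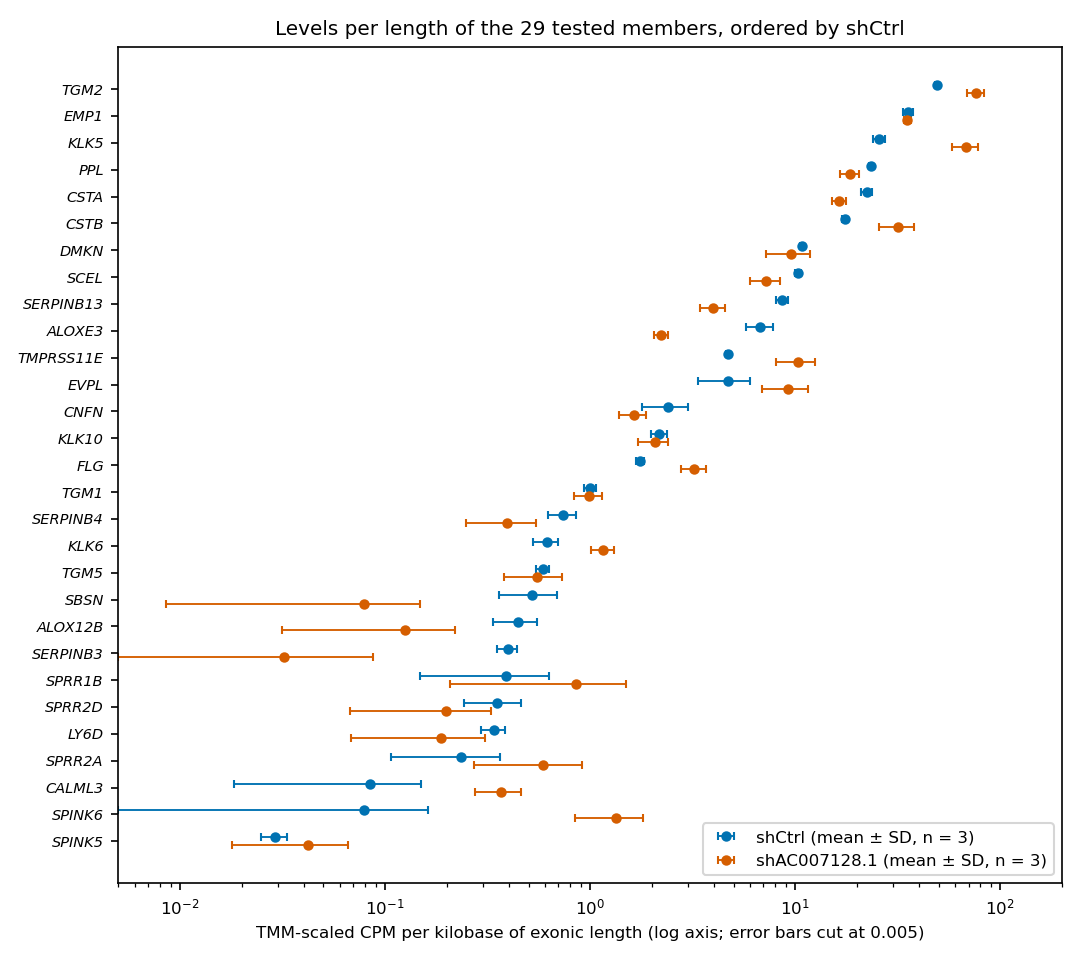
TMM-scaled CPM per kilobase of exonic length (horizontal log axis) for the 29 tested members, ordered by the shCtrl level, as mean ± SD of 3 shCtrl and 3 shAC007128.1 samples. By this length, which joins the exons of all annotated transcripts, TGM2, EMP1 and KLK5 lead in both groups. KLK5 comes close to TGM2 in shAC007128.1 cells.

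The kallikrein and serpin members sit in gene clusters whose other genes can be set beside them. The kallikrein cluster holds 15 genes over 265 kilobases of chromosome 19, of which 5 were tested and 5 had no count. KLK9, which overlaps KLK8 in sequence, ranged from 0.0683 to 1.29 CPM in shCtrl and from 0.0516 to 2.57 CPM in shAC007128.1 samples (log2 fold change 1.11, SE 1.20, edgeR adjusted p = 0.5). KLK14 was at -0.48 (SE 0.39, adjusted p = 0.373). The SERPINB cluster holds 10 genes over 542 kilobases of chromosome 18, of which 7 were tested. Its first gene, SERPINB5 (maspin), was higher, at 75 to 78.7 CPM in shCtrl and 102 to 126 CPM in shAC007128.1 samples (log2 fold change 0.53, edgeR adjusted p = 0.00426). SERPINB7, SERPINB2 and SERPINB8, past the members on the other side, had log2 fold changes of -0.50, -0.66 and -0.93 with adjusted p of 0.0184, 0.0109 and 0.00509, all under the fold limit.

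**Figure D4:**
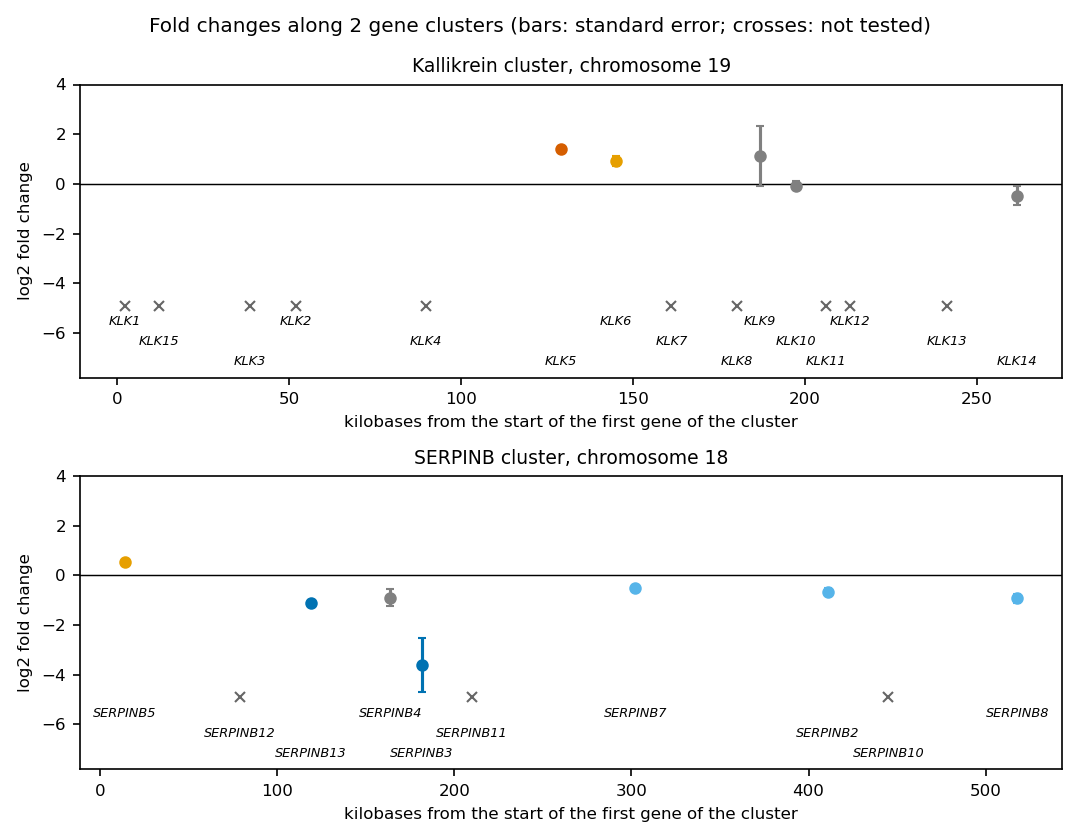
Log2 fold change (vertical axis, with its standard error) of the genes of the kallikrein and SERPINB clusters by distance in kilobases from the start of the first gene; crosses mark genes with too few counts. KLK5, its neighbour KLK6 and KLK9 lie above 0, though KLK9 (1.11, standard error 1.2) did not pass the test. All tested serpins except SERPINB5 lie below 0, and of these SERPINB4 did not pass the adjusted p.

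A further list of 138 genes of squamous differentiation and barrier formation, none of them a member, was set beside the 46. Of these, 67 were tested, 1 (1.49%) was called higher and 8 (11.9%) lower. Over all genes these shares were 5.57% and 10.1%, so the share called lower was close to the background. With the adjusted p alone 9 (13.4%) were higher and 21 (31.3%) lower, where all genes gave 21.0% and 19.8%. The median log2 fold change was -0.27, against -0.02 over all genes tested. SOX2, a transcription factor of the squamous lineage, was the gene called higher, from 0.328 to 0.59 CPM in shCtrl to 3.89 to 5.17 CPM in shAC007128.1 samples (log2 fold change 3.40, SE 0.28, edgeR adjusted p = 0.000146). Ranked by p, the first 5 of the lower genes were CEBPB, MUC4, SLPI, PADI3 and CASP14. CEBPB, a transcription factor active in differentiating keratinocytes, went from 367 to 382 CPM in shCtrl to 73 to 96.4 CPM in shAC007128.1 samples (log2 fold change -2.13, SE 0.11, edgeR adjusted p = 2.96e-05). The membrane mucin gene MUC4 went from 2.9 to 3.87 CPM to 0.091 to 0.178 CPM, a log2 fold change of -4.59 (SE 0.31). SLPI, which encodes a secreted protease inhibitor, was at -1.87 (SE 0.14). PADI3 and CASP14, whose products act on filaggrin, were at -1.90 (SE 0.22) and -2.45 (SE 0.41). All 5 had separated groups, as did 55.2% of all genes tested. MUC4 had 10, 5 and 8 counts in shAC007128.1 replicates 1 to 3, and CASP14 had 13, 8 and 8. Both passed the filter on low counts only through shCtrl, where they were high. Their calls add no support to the numbers of genes called lower here and by list.

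By list, 2 of 6 tested filaggrin processing genes and 2 of 12 barrier lipid genes were called lower, and 0 of either were called higher, where all genes tested gave 10.1% lower and 5.57% higher. The lipid genes were SULT2B1 and ABCA12, named because the count is small. Of 10 further protease inhibitors 1 was called lower, of 13 surface proteins 2, and of 17 transcription factors 1 lower and 1 higher. The 1 tested further precursor, the 1 transglutaminase and the 7 further proteases had no call. ST14 (matriptase), a membrane protease upstream of prostasin, was at 259 to 265 CPM in shCtrl and 333 to 423 CPM in shAC007128.1 samples (log2 fold change 0.56, edgeR adjusted p = 0.00317), and KLF4, a regulator of barrier genes, at 64 to 66.7 and 32.5 to 37.1 CPM (log2 fold change -0.88, edgeR adjusted p = 0.000274). Both were chosen after their values were seen, and neither passed the fold limit.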

How the data were processed

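RNA of 3 shCtrl and 3 shAC007128.1 samples of KYSE150 cells was sequenced from poly-A selected, paired-end TruSeq libraries. Before mapping to hg38 with TopHat, the authors discarded reads of rRNA, adapters and poor quality. The submitters' processing notes name CASAVA 1.8 and TopHat2 2.0.6, while the study's methods give another TopHat version, and the notes list a mouse build beside GRCh38. Values were deposited by Ensembl gene as estimated counts, in whole numbers and without normalization. The counting program, annotation and use of strand are not given in the sources used here. Low counts pile up at multiples of 4, so 1 fragment may stand as several counts, and counts divided by 4 were an alternative. All columns were mapped by their labels, leaving 0 unmapped.

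Symbols, positions and exonic lengths come from GENCODE v44 on hg38, which holds 60357 of the 67140 identifiers (89.9%), and promoters from RefSeq (GRCh38.p14). filterByExpr left out 47886 identifiers. TMM factors were then computed and groups compared with glmQLFit and glmQLFTest in edgeR 4.0.16 (R 4.3.3). Both limits on calls follow the study. The standard error is the log2 fold change over the root of F, and p was adjusted by Benjamini-Hochberg over all genes tested. Steps were tested on simulated counts. Alternatives were DESeq2 1.42.0, limma-voom (limma 3.58.1), other scaling, filters and fold limits, the replicate block, and each sample left out.

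The members and lists were chosen with earlier results of these data known. Members that were called, and the 6 tested members with the highest mean CPM, are given by sample; the other tested members are given by range. Of the 138 further genes, up to 5 called genes with the smallest p in each direction are named.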

Additional observations from a re-analysis of the deposited data

How the results depend on the processing

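The counts of 4 members called higher and 5 lower, and of 1 and 8 further genes, became 9, 8, 9 and 21 without a limit on fold change. With at least 10 counts in every sample 2 members were called higher and 3 lower, and with counts divided by 4, 2 were called higher. Fewer genes were tested under both settings. With glmTreat against a fold of 1.5, 2 members were called lower and 2 further genes higher. That test took the place of the limit of 1 on the log2 scale, so smaller changes could also be called. The cause of the fall from 5 to 2 members called lower was not tested. Leaving out each sample gave 3 to 5 members higher and 2 to 5 lower: 2 without any one of the shCtrl samples, and 3 without shAC007128.1 replicate 2 or 3. Further genes were 1 higher and 7 to 10 lower.

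The glmTreat setting and the one without a limit on fold change were followed as counts only, not gene by gene. KLK5, SPINK6, SERPINB13 and ALOXE3 were called under every other setting in which they were tested, and no called member changed sign. For SPINK6, which passed the filter only through its high group, this says little about stability. SPINK6, CALML3 and SERPINB3 could not be tested with at least 10 counts in every sample or with counts divided by 4. With no filter on low counts CALML3 (2.06), SERPINB3 (-3.64) and SBSN (-2.77) missed the threshold (adjusted p = 0.0527, 0.0567 and 0.0641). Values near 0 changed sign when a sample was left out. TGM1 was at 0.01 without shCtrl replicate 1, 0.05 without shAC007128.1 replicate 1 and 0.02 without shAC007128.1 replicate 3. EMP1 was at 0.03, 0 and 0.01 without shCtrl replicate 2, shAC007128.1 replicate 1 and shAC007128.1 replicate 2. KLK10 was at 0.06 without shAC007128.1 replicate 1 and TGM5 at 0.07 without shAC007128.1 replicate 3. With any one sample left out, TGM1 ranged from -0.15 to 0.05, TGM5 from -0.36 to 0.07, EMP1 from -0.05 to 0.03 and KLK10 from -0.17 to 0.06.

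With the replicate block 4 members were called higher and 5 lower, and 1 and 8 further genes. Same-numbered samples deviated together with correlations across genes of 0.031, -0.025 and -0.03, so the numbers do not pair them. The median log2 fold change over all genes tested was -0.149 with no filter, against -0.024 in the reported test. At this depth 17 members, with at most 14 counts in any sample, were under the filter of the reported test.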
